A study of Mus musculus with 9 samples.

Results

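The genes described here are 36 members of the response to amino acid shortage that is driven by the transcription factor Atf4, together with the amino acid transporters that belong to it. They were chosen by name, from a fixed list, among the gene probes of an Agilent mouse expression array. The list had 59 probes on the array, and 35 of the 36 genes passed the filter on dim probes and were tested, out of 16733 genes tested in all. Ppp1r15a was found under its older name Myd116. Cbs, an enzyme of transsulfuration, did not pass the filter: its only probe was well above background on 1 control array, 0 X-1 arrays and 2 X-3 arrays. RNA came from 3T3-L1 preadipocytes, an established mouse line of adipocyte precursors. Cells of all 3 groups had been grown in medium with 10% fetal bovine serum and then kept without serum for 48 h. They were then left untreated (control) or given X-1 or X-3, both mangiferin derivatives per the series title, at 70 µM for 24 h. The labels name no vehicle for the control. Each group had 3 one-colour (Cy3) arrays, which the design text calls independent experiments.

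In this pathway, kinases that sense uncharged transfer RNA or stress in the endoplasmic reticulum phosphorylate the translation factor eIF2. General protein synthesis then slows, while the Atf4 messenger RNA is translated more efficiently, so much of the control of Atf4 lies after transcription. The Atf4 protein pairs with C/EBP family proteins and switches on genes for amino acid synthesis, amino acid import and feedback on eIF2. These arrays measured messenger RNA only.

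Levels are log2 processed intensity minus the 75th percentile of the same array, so a level of 0 is that percentile. Levels of different genes come from different probes and are not set against each other. Between 57.9% and 67.1% of the 43379 gene spots of an array were well above background, and 0 were saturated. Among the 35 probes used for the genes tested, 34 were well above background on all 9 arrays, the exception being Stc2. All 10 preadipocyte and fibroblast markers were well above background on every array. Of other cell types, 1 of 7 mature adipocyte markers (Fabp4), 2 of 5 macrophage markers (Cd68 and Csf1r), 1 of 4 endothelial markers (Tek) and 2 of 4 skeletal muscle markers (Myod1 and Acta1) were above background on every array. Epcam and Cdh1, of 4 epithelial markers, were above background on none, and Krt8 was on all. The log2 of the summed linear levels of the macrophage markers was −1.82 in control, −0.82 with X-1 and −0.62 with X-3. That of the epithelial markers was −3.40, −1.67 and −1.14. Such sums weigh the brightest marker most. Those of the mature adipocyte markers (−1.03, −2.96 and −2.63) and the skeletal muscle markers (−0.74, −2.51 and −1.92) were lower with both compounds. The falls came from the brightest marker of each set, Fabp4 (−1.14, −3.97 and −3.62) and Acta1 (−0.83, −2.84 and −2.24). The other mature adipocyte markers, Myog and Des were not above background on all 3 arrays of any group, so their direction is not given. Myod1 was dim and slightly higher with both compounds (−5.52, −5.41 and −5.08). The endothelial markers gave −4.27, −4.48 and −4.45, and the preadipocyte and fibroblast markers 10.66, 10.68 and 10.57. Single preadipocyte and fibroblast markers differed more. Ly6a lay at −0.09, 3.30 and 3.50, Pdgfra at 4.60, 3.24 and 3.26, and Pdgfrb at 5.78, 4.36 and 4.57. Dlk1 was also higher with both compounds, and Thy1, Fbn1, Col1a1 and Col1a2 were lower. Col3a1 and Vim were higher with X-1 and lower with X-3. The part of all these markers in the results was not tested.

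The members did not share 1 direction. The regulators Atf4, Cebpg, Ppp1r15a, Ddit4 and Trib3, the enzyme Mthfd1l and the transporter subunit Slc3a2 were the 7 members that rose with both compounds (20.0% of 35). Under spike-in scaling, described below, only Ppp1r15a and Ddit4 among them stayed called higher with both: Atf4 was then not called with X-1, Cebpg not with X-3, and Trib3, Mthfd1l and Slc3a2 with neither. Phgdh and Psph of serine synthesis, Pycr1 of proline synthesis, Shmt2, the transporters Slc1a5, Slc38a1, Slc6a9 and Slc7a3, the kinase Eif2ak4 and the secreted Stc2 were the 10 that fell with both (28.6%). Of all genes, 23.3% rose and 22.5% fell with both, so that these 2 shares of members lay near the background. A gene is called here when its limma p-value, adjusted by Benjamini-Hochberg over the 16733 genes, is under 0.05. With X-1, 8 of 35 members were called higher (22.9%, beside 28.2% of all genes tested) and 11 lower (31.4%, beside 28.3%), and 16 were not called (45.7%, beside 43.5%). With X-3, 8 were called higher (22.9%, beside 29.3% of all genes) and 18 lower (51.4%, beside 26.4%), and 9 were not called (25.7%, beside 44.4%). The shares called lower and not called with X-3 lay farthest from their background, a difference that was not tested as a set. The median member difference was −0.21 with X-1 (−0.28, −0.13 and −0.16 within slides 1, 2 and 3, beside 0.06 over all genes) and −0.44 with X-3 (−0.17, −0.21 and −0.62, beside 0.06). Both comparisons use the same 3 control arrays, and their values are therefore set side by side below.

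These directions are relative to the bulk of the genes on each array. When arrays were scaled on spike-in RNA, which only replicates 2 and 3 held, the median of all genes moved by −0.90 (X-1) and −0.71 (X-3), and when scaled on the array median, by −0.22 and −0.23. Among all genes the split of higher to lower calls was 4718 to 4734 with X-1, 3105 to 5246 under median scaling and 1542 to 9938 under spike-in scaling. For X-3 it was 4901 to 4410, 3047 to 5006 and 1845 to 8379. Among the members the split of 8 to 11 with X-1 became 7 to 12 and 3 to 24, and the split of 8 to 18 with X-3 became 5 to 19 and 3 to 22. Of the members called higher, Ddit4, Cebpg and Ppp1r15a with X-1 and Atf4, Ddit4 and Ppp1r15a with X-3 kept that call in every setting tried. Control, X-1 and X-3 lay at positions 1, 2 and 3 of every slide, so that position and group cannot be told apart.

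**Figure D1:**
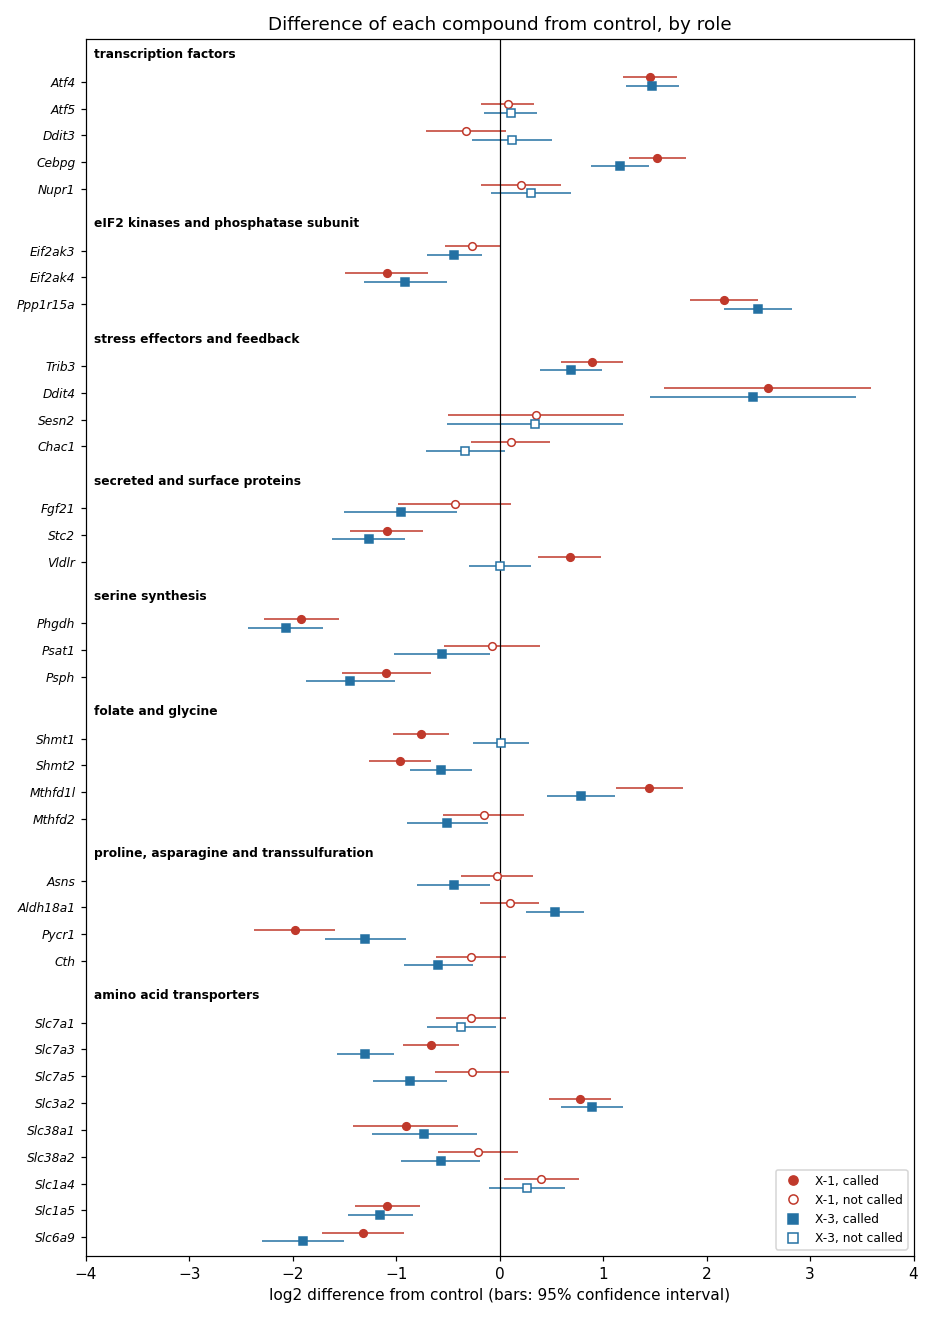
Log2 difference from control of the 35 genes tested, grouped by role, for X-1 (red circles) and X-3 (blue squares), with 95% confidence intervals from limma over 3 arrays per group; filled symbols are called. Atf4, Cebpg, Ppp1r15a, Ddit4 and Trib3 lie to the right for both compounds (Trib3 lies at 0.00 with X-1 and at −0.11 with X-3 under spike-in scaling), and Phgdh, Psph, Pycr1, Slc1a5 and Slc6a9 to the left.

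Atf4 binds DNA with its C/EBP partner at a composite element, and the letters TGATGNAA, its core, were searched on both strands of RefSeq promoter windows of 300 bases (250 before and 50 after a start site, build GRCm38.p6). Windows were found for 31 of the 36 members; Cth, Slc7a3, Slc7a5, Slc38a1 and Slc1a5 had none. The core was present for 8 of 31 members (25.8%), beside 4.51% of 27025 genes and 3.97% of 32851 windows. The 8 stretches are shown because they link members with opposite calls; each has 30 bases on the gene's strand, with the match in capitals, which reads as the reverse complement where it lies on the other strand.
Trib3: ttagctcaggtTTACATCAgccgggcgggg
Asns: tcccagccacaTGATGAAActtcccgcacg
Chac1: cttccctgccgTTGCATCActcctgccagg
Pycr1: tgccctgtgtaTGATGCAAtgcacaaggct
Slc1a4: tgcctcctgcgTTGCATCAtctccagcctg
Nupr1: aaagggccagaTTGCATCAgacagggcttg
Vldlr: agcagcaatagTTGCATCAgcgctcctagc
Fgf21: agacccccccaTTGCATCAtccgtccaggc
In Asns, on the minus strand of chromosome 6, the match began 23 bases before the start site, and in Pycr1, on the minus strand of chromosome 11, 103 bases before it. The match of Trib3 began 14 bases after the start site, and those of Slc1a4, Nupr1, Fgf21, Chac1 and Vldlr began 4, 110, 139, 193 and 200 bases before it. Of these 8 genes, X-1 gave 2 called higher (Trib3 and Vldlr), 1 lower (Pycr1) and 5 not called, and X-3 gave 1 higher (Trib3), 3 lower (Asns, Pycr1 and Fgf21) and 4 not called. Of the 22 tested members whose windows lacked these letters, 6 were called higher and 7 lower with X-1, and 7 higher and 10 lower with X-3. Of all genes tested, 28.2% were called higher and 28.3% lower with X-1, and 29.3% higher and 26.4% lower with X-3. Members with and without a match were not tested against each other. A match is a string of letters and not a measured binding site.

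The 250 bases before the start sites of Asns and Pycr1 give the setting of the matches in an enzyme gene called lower with X-3 and not with X-1 and in one called lower with both compounds.
Asns, chr6:7693210-7693459, minus strand: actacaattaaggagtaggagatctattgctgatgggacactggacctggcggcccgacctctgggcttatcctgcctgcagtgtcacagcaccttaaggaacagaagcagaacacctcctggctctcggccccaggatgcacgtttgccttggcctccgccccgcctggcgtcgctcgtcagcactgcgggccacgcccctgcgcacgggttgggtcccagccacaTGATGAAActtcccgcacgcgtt
Pycr1, chr11:120643749-120643998, minus strand: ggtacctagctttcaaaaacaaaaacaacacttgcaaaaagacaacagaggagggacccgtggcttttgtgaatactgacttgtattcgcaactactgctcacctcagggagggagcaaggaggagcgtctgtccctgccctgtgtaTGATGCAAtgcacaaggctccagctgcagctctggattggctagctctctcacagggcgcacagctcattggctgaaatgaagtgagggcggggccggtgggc

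The transcription factors came first. Atf4 itself lay at 0.79, 0.77 and 0.73 in control, 2.26, 2.18 and 2.21 with X-1, and 2.07, 2.32 and 2.33 with X-3 (replicates 1, 2 and 3, here and below). Every treated array was above every control array, and the treated groups overlapped each other. Atf4 rose by 1.45 ± 0.11 with X-1 (standard error, n = 3 arrays per group, here and below; 2.74-fold, adjusted p = 8.01e-06) and by 1.48 ± 0.11 with X-3 (2.78-fold, adjusted p = 8.98e-06). With spike-in scaling the X-1 difference was 0.54 and was no longer called (adjusted p = 0.0981). Its probe lies on chromosome 15, 80087079 to 80087138, in the mm9 coordinates of the array files.

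Cebpg, a C/EBP family partner of Atf4, lay at 0.65, 0.43 and 0.38 in control, 2.12, 2.01 and 1.89 with X-1, and 1.69, 1.57 and 1.68 with X-3. It rose by 1.52 ± 0.12 with X-1 (2.87-fold, adjusted p = 9.32e-06) and by 1.16 ± 0.12 with X-3 (2.24-fold, adjusted p = 5.51e-05; 0.51 and not called under spike-in scaling, adjusted p = 0.128). The 3 groups did not overlap. The other factors were not called with either compound. Atf5, a related factor, differed by 0.08 and 0.11 with X-1 and X-3. Ddit3, known as CHOP, which acts in prolonged stress, lay at 1.95, 2.23 and 2.23 in control, 1.62, 1.74 and 2.07 with X-1, and 2.04, 2.50 and 2.24 with X-3, so that X-1 (−0.33, adjusted p = 0.132) and X-3 (0.12, adjusted p = 0.569) lay on either side of the control mean. Ddit3 was called lower with X-1 under median scaling (−0.55, adjusted p = 0.0358) and under spike-in scaling (−1.22, adjusted p = 0.000119). Nupr1, a small stress-induced nuclear protein, differed by 0.20 and 0.30. Under spike-in scaling Atf5 (−0.72, adjusted p = 0.0264) and Nupr1 (−0.71, adjusted p = 0.0285) were also called lower with X-1.

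The eIF2 arm moved in opposite directions. Ppp1r15a, known as GADD34, is the subunit that directs a phosphatase to eIF2 and so reverses the signal. It lay at −1.54, −1.48 and −1.39 in control, 0.91, 0.43 and 0.75 with X-1, and 0.91, 1.03 and 1.13 with X-3. No treated array was near the controls, and Ppp1r15a rose by 2.16 ± 0.14 with X-1 (4.48-fold, adjusted p = 3.17e-06) and by 2.49 ± 0.14 with X-3 (5.63-fold, adjusted p = 2.18e-06). Eif2ak4, the kinase GCN2 that senses uncharged transfer RNA, lay at 1.84, 2.49 and 2.26 in control, 0.98, 1.21 and 1.12 with X-1, and 1.42, 1.13 and 1.29 with X-3. Eif2ak4 fell by 1.09 ± 0.18 (adjusted p = 0.000655) and by 0.91 ± 0.18 (adjusted p = 0.00204), but its other 2 kept probes were not called, and with the mean of its probes the X-3 call was lost (−0.51, adjusted p = 0.0586). Eif2ak3, the kinase PERK of the endoplasmic reticulum, fell by 0.44 ± 0.12 with X-3 (adjusted p = 0.0115; not called with the mean of its probes, −0.38, adjusted p = 0.115) and differed by −0.27 with X-1 (adjusted p = 0.0836, or 0.039 without X-3 replicate 1).

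**Figure D2:**
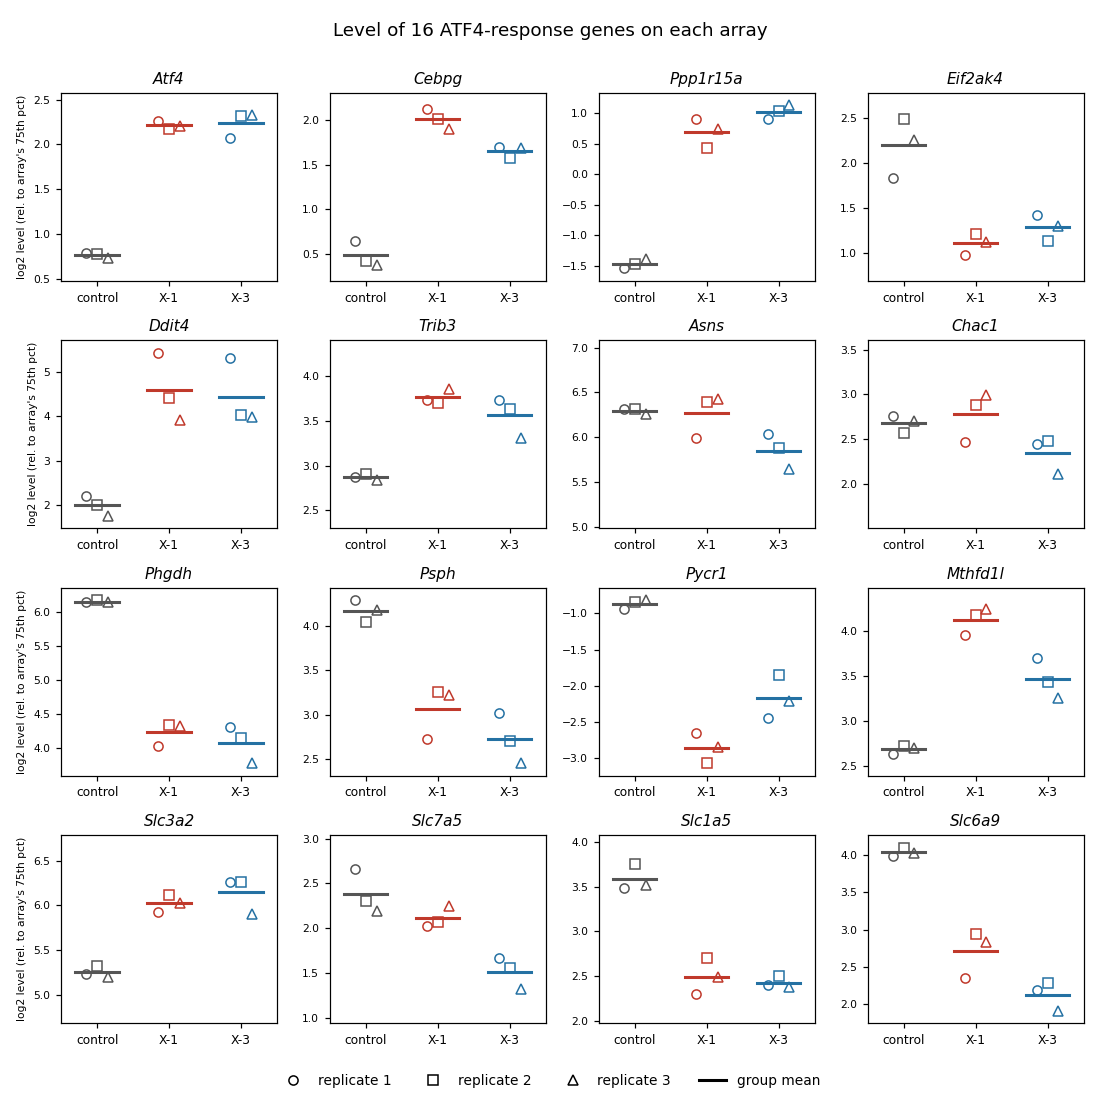
Level of 16 members on each array (log2 intensity relative to the array's 75th percentile), by group; symbols mark replicates 1 to 3 and bars the group means. Panels have their own axes. The treated arrays of Atf4, Cebpg, Ppp1r15a and Ddit4 lie above all control arrays and those of Phgdh, Psph, Pycr1 and Slc6a9 below them, while for Asns and Chac1 the X-1 arrays spread around the controls.

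Among the stress effectors, Ddit4 and Trib3 rose and Sesn2 and Chac1 were not called. Ddit4, known as REDD1, is an inhibitor of mTORC1. It lay at 2.21, 2.01 and 1.77 in control, 5.43, 4.40 and 3.92 with X-1, and 5.32, 4.03 and 3.98 with X-3. Replicate 1 was the highest of both treated groups by over 1 log2 unit, and the gene rose by 2.59 ± 0.44 (6.01-fold, adjusted p = 0.000886) and 2.45 ± 0.44 (5.46-fold, adjusted p = 0.00136). Trib3, a pseudokinase that feeds back on Atf4, lay at 2.87, 2.90 and 2.84 in control, 3.73, 3.70 and 3.85 with X-1, and 3.73, 3.64 and 3.31 with X-3. It rose by 0.89 ± 0.13 (adjusted p = 0.000405) and 0.69 ± 0.13 (adjusted p = 0.00203), but lay at 0.00 and −0.11 under spike-in scaling, and the X-3 call was lost under median scaling (0.46, adjusted p = 0.087).

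Chac1, which degrades glutathione, lay at 2.75, 2.57 and 2.71 in control, 2.47, 2.88 and 3.00 with X-1, and 2.45, 2.48 and 2.11 with X-3. The X-3 arrays were all below the controls, but the difference of −0.33 was not called (adjusted p = 0.122), nor was that of 0.10 with X-1. Under spike-in scaling Chac1 was called lower with X-3 (−1.06, adjusted p = 0.00106). Sesn2, a leucine sensor that restrains mTORC1, varied more between slides than between groups: 2.60, 1.79 and 2.03 in control, 3.09, 1.98 and 2.40 with X-1, and 3.20, 2.20 and 2.05 with X-3 (0.35 ± 0.38 and 0.34 ± 0.38). Its other kept probe was called higher with both compounds, by 0.59 (adjusted p = 0.00865) and 0.45 (adjusted p = 0.0318), in a limma fit adjusted over all 25285 kept probes.

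Of 3 secreted or surface proteins, Stc2, a secreted glycoprotein, fell with both compounds, by 1.09 ± 0.15 (adjusted p = 0.000284) and 1.27 ± 0.15 (adjusted p = 0.000132). Its probe was dim, above background on 3 control arrays and on 2 arrays of each treated group, and neither call was kept with normexp background correction (−0.47, adjusted p = 0.139, and −0.54, adjusted p = 0.0961). Fgf21, a hormone induced by nutrient stress, lay at −3.25, −4.14 and −4.01 in control, −4.26, −4.29 and −4.17 with X-1, and −4.44, −4.80 and −5.04 with X-3. Control replicate 1 stood apart from the other 2 controls. Fgf21 fell by 0.96 ± 0.24 with X-3 (adjusted p = 0.00816; not called with normexp, −0.48, adjusted p = 0.101) and differed by −0.44 with X-1 (adjusted p = 0.151). With X-1 it was called lower at its other kept probe (−0.52, adjusted p = 0.031, over all kept probes), with the mean of its probes (−0.48, adjusted p = 0.0496) and under spike-in scaling (−1.06, adjusted p = 0.000964). Vldlr, a receptor for triglyceride-rich lipoproteins, lay at 4.71, 4.69 and 4.65 in control, 5.13, 5.48 and 5.45 with X-1, and 4.83, 4.56 and 4.67 with X-3. It rose by 0.67 ± 0.13 with X-1 alone (adjusted p = 0.00213), a call that was lost under median scaling (0.46, adjusted p = 0.0993) and turned to −0.10 under spike-in scaling. Its X-3 difference was 0.00, but −0.77 and called lower under spike-in scaling (adjusted p = 0.0195).

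Among the enzyme groups, serine synthesis had the lowest median difference (−1.10 with X-1 and −1.44 with X-3). All 3 of its genes were called lower with X-3 (beside 26.4% of all genes) and 2 with X-1 (beside 28.3%). Phgdh, the first enzyme of the pathway, lay at 6.14, 6.18 and 6.15 in control, 4.03, 4.35 and 4.33 with X-1, and 4.32, 4.15 and 3.78 with X-3. The control arrays lay close together and every treated array was far below them. Phgdh fell by 1.92 ± 0.16 with X-1 (3.78-fold, adjusted p = 1.1e-05) and by 2.07 ± 0.16 with X-3 (4.20-fold, adjusted p = 8.93e-06). Its 3 kept probes gave −2.00 to −1.92 with X-1 and −2.07 to −1.72 with X-3; the probe used lies on chromosome 3, 98117098 to 98117157 (mm9). Psph, which performs the last step, lay at 4.28, 4.04 and 4.18 in control, 2.73, 3.26 and 3.22 with X-1, and 3.01, 2.70 and 2.46 with X-3. Psph fell with both compounds, with differences of −1.10 ± 0.19 (2.14-fold, adjusted p = 0.000981) and −1.44 ± 0.19 (2.72-fold, adjusted p = 0.000216). Psat1, the enzyme between them, lay at 3.82, 4.39 and 4.24 in control, 3.68, 4.27 and 4.26 with X-1, and 3.57, 3.73 and 3.48 with X-3. It differed by −0.08 with X-1 (adjusted p = 0.772) and fell by 0.56 ± 0.21 with X-3 (adjusted p = 0.0448). That last call was lost when control replicate 2 or 3, X-1 replicate 2 or 3, or any 1 X-3 array was left out (−0.63 to −0.44, adjusted p = 0.0538 to 0.148). The call was also lost without the filter on dim probes (adjusted p = 0.0921) and with the deposited scores (adjusted p = 0.0504).

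In folate and glycine metabolism the enzymes did not move together, also among the mitochondrial ones. Mthfd1l, which releases formate in mitochondria, lay at 2.63, 2.72 and 2.69 in control, 3.95, 4.18 and 4.25 with X-1, and 3.71, 3.43 and 3.26 with X-3. The groups did not overlap, and Mthfd1l rose by 1.45 ± 0.14 with X-1 (2.72-fold, adjusted p = 3.37e-05; 0.60 and not called under spike-in scaling, adjusted p = 0.0633) and by 0.78 ± 0.14 with X-3 (1.72-fold, adjusted p = 0.00157; −0.075 under spike-in scaling, and 0.56, adjusted p = 0.061, under median scaling). Shmt2, the mitochondrial enzyme that splits serine into glycine and a one-carbon unit, lay at 2.03, 2.07 and 2.03 in control, 1.08, 1.15 and 0.98 with X-1, and 1.68, 1.51 and 1.25 with X-3. Shmt2 fell by 0.97 ± 0.13 (adjusted p = 0.000233) and 0.56 ± 0.13 (adjusted p = 0.00581). Its cytosolic counterpart Shmt1 lay at −0.82, −0.82 and −0.95 in control, −1.75, −1.66 and −1.48 with X-1, and −0.81, −0.79 and −0.96 with X-3. Only the X-1 arrays were low, and Shmt1 fell by 0.76 ± 0.12 with X-1 (adjusted p = 0.000513) and differed by 0.01 with X-3 (−0.70 and called lower under spike-in scaling, adjusted p = 0.0337). Mthfd2, a mitochondrial dehydrogenase of the same route, differed by −0.16 with X-1 and fell by 0.51 ± 0.17 with X-3 (adjusted p = 0.0336). Its X-3 call was lost without any 1 control array, X-1 replicate 2 or X-3 replicate 1 or 3 (−0.57 to −0.38, adjusted p = 0.051 to 0.12), under quantile normalization (adjusted p = 0.0556), without the filter on dim probes (adjusted p = 0.0751) and with the X-3 and control arrays alone (adjusted p = 0.0501).

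Proline synthesis split between its enzymes. Pycr1, the mitochondrial reductase of the last step, lay at −0.94, −0.84 and −0.82 in control, −2.65, −3.06 and −2.84 with X-1, and −2.44, −1.85 and −2.21 with X-3. It fell by 1.98 ± 0.17 with X-1 (3.96-fold, adjusted p = 1.4e-05) and by 1.30 ± 0.17 with X-3 (2.46-fold, adjusted p = 0.000216). Its probe lies on chromosome 11, 120501179 to 120501238 (mm9). Aldh18a1, which makes the precursor that Pycr1 reduces, lay at 0.78, 0.76 and 0.62 in control, 0.87, 0.79 and 0.78 with X-1, and 1.08, 1.44 and 1.24 with X-3. It rose by 0.53 ± 0.12 with X-3 (adjusted p = 0.00579), and this turned to −0.061 under spike-in scaling and was 0.31 (adjusted p = 0.149) under median scaling. Its X-1 difference was 0.09, which became −0.80, called lower, under spike-in scaling (adjusted p = 0.0125).

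Asns, which makes asparagine and is a standard marker of Atf4 activity, lay at 6.31, 6.32 and 6.26 in control, 5.99, 6.40 and 6.42 with X-1, and 6.03, 5.88 and 5.64 with X-3. X-1 arrays lay on both sides of the controls (−0.03, adjusted p = 0.896), although Asns was called lower with X-1 under quantile normalization (−0.34, adjusted p = 0.0287), with the deposited scores (adjusted p = 0.0265) and under spike-in scaling (−0.78, adjusted p = 0.0156). The X-3 arrays were all lower than the controls, and Asns fell by 0.45 ± 0.15 (adjusted p = 0.0349). That call was lost with the replicate block (adjusted p = 0.0521), without the filter on dim probes (adjusted p = 0.0807), and without any 1 control array or X-3 replicate 2 or 3 (−0.46 to −0.34, adjusted p = 0.0707 to 0.124). Cth, which makes cysteine from cystathionine, lay at −0.14, −0.45 and −0.29 in control, −0.60, −0.58 and −0.53 with X-1, and −0.69, −0.81 and −1.16 with X-3. Cth fell by 0.59 ± 0.15 with X-3 (adjusted p = 0.00789) and differed by −0.28 with X-1 (adjusted p = 0.138).

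Of 9 amino acid transporters, 1 was called higher and 4 lower with X-1 (beside 28.2% and 28.3% of all genes), and 1 higher and 6 lower with X-3 (beside 29.3% and 26.4%). Slc6a9, the glycine transporter GlyT1, showed the largest drop of the 9 with either compound among the probes used: 3.98, 4.10 and 4.03 in control, 2.35, 2.94 and 2.84 with X-1, and 2.19, 2.29 and 1.91 with X-3. Slc6a9 fell by 1.32 ± 0.17 (2.50-fold, adjusted p = 0.000187) and 1.91 ± 0.17 (3.75-fold, adjusted p = 2.46e-05). Slc1a5, the glutamine and neutral amino acid exchanger ASCT2, lay at 3.49, 3.75 and 3.52 in control, 2.30, 2.71 and 2.49 with X-1, and 2.41, 2.50 and 2.38 with X-3. All treated arrays were low and the treated groups overlapped, with Slc1a5 falling by 1.09 ± 0.14 (adjusted p = 0.000151) and 1.16 ± 0.14 (adjusted p = 0.000122). Slc7a3, a carrier of arginine and lysine, lay at −2.54, −2.22 and −2.39 in control, −2.99, −3.04 and −3.12 with X-1, and −3.62, −3.66 and −3.77 with X-3, in 3 separate steps. It fell by 0.66 ± 0.12 (adjusted p = 0.00133) and 1.30 ± 0.12 (adjusted p = 2.69e-05). Slc7a1, the main carrier of the same amino acids in most cells, differed by −0.28 (adjusted p = 0.138) and −0.37 (adjusted p = 0.0589, or 0.0254 without X-3 replicate 1). With X-3 it was called lower under median scaling (−0.60, adjusted p = 0.0425), with the 75th percentile taken over probes above background on all arrays (−0.34, adjusted p = 0.0456) and under spike-in scaling (−1.23, adjusted p = 0.000124). Under spike-in scaling it was also called lower with X-1 (−1.18, adjusted p = 0.000213), whereas its other kept probe gave 0.18 and 0.20 and was not called.

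The heterodimer LAT1, which imports leucine and other large neutral amino acids, was split at its subunits. Its heavy chain Slc3a2 lay at 5.23, 5.33 and 5.20 in control, 5.93, 6.12 and 6.03 with X-1, and 6.26, 6.27 and 5.90 with X-3, and rose by 0.77 ± 0.13 (adjusted p = 0.000949; −0.090 under spike-in scaling) and 0.89 ± 0.13 (adjusted p = 0.000455; 0.11 under spike-in scaling, adjusted p = 0.762). Its light chain Slc7a5 lay at 2.66, 2.31 and 2.19 in control, 2.03, 2.07 and 2.24 with X-1, and 1.67, 1.55 and 1.32 with X-3. Slc7a5 fell by 0.87 ± 0.16 with X-3 (1.83-fold, adjusted p = 0.00142), and the X-1 arrays overlapped the controls (−0.27, adjusted p = 0.172). Slc38a1 and Slc38a2 take up glutamine and alanine with sodium. Slc38a1 lay at −1.65, −1.83 and −1.07 in control, −2.38, −2.33 and −2.58 with X-1, and −2.61, −2.04 and −2.10 with X-3. It fell by 0.91 ± 0.22 (adjusted p = 0.00721) and 0.73 ± 0.22 (adjusted p = 0.0212), the latter not called without control replicate 3 or X-3 replicate 1 (−0.55 to −0.51, adjusted p = 0.0504 to 0.0712). Slc38a2 lay at 4.82, 5.27 and 5.33 in control, 4.74, 5.10 and 4.95 with X-1, and 4.72, 4.45 and 4.53 with X-3. It differed by −0.21 with X-1 and fell by 0.57 ± 0.17 with X-3 (adjusted p = 0.0178), a call lost with the mean of its probes (−0.28, adjusted p = 0.0564) and without control replicate 2 or 3 or X-3 replicate 2 or 3 (−0.55 to −0.48, adjusted p = 0.0523 to 0.0708). Slc1a4, the neutral amino acid exchanger ASCT1, lay at 1.66, 1.53 and 1.32 in control, 2.10, 1.92 and 1.69 with X-1, and 1.96, 1.76 and 1.56 with X-3. Within every slide the order was control, X-3, X-1. Its differences of 0.40 ± 0.16 (adjusted p = 0.0597) and 0.26 ± 0.16 (adjusted p = 0.198) were not called, but with the replicate block the X-1 difference was (adjusted p = 0.0127), as it also was when X-1 replicate 3 or else X-3 replicate 1 was left out (0.40 to 0.51, adjusted p = 0.0364 to 0.0397).

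X-3 was compared with X-1 directly, at the same dose and time, as the only pair of compounds. Here 2 of 35 members were called higher with X-3 (5.71%, beside 7.2% of all genes tested) and 4 lower (11.4%, beside 3.66%), and none of the 35 differences reached 2-fold (beside 1.85% of all genes called and at least 2-fold). Shmt1 was higher with X-3 by 0.78 ± 0.12 (1.71-fold, adjusted p = 0.00703) and Pycr1 by 0.68 ± 0.17 (1.61-fold, adjusted p = 0.0367). Vldlr was lower with X-3 by 0.67 ± 0.13 (1.59-fold, adjusted p = 0.0167), Mthfd1l by 0.66 ± 0.14 (1.58-fold, adjusted p = 0.0236), Slc7a3 by 0.63 ± 0.12 (1.55-fold, adjusted p = 0.0146) and Slc7a5 by 0.60 ± 0.16 (1.52-fold, adjusted p = 0.043). In each of these 6 genes the X-1 and X-3 arrays did not overlap, so that the order was the same on all 3 slides. Some members that were not called, such as Shmt2, Cth, Slc6a9 and Cebpg, did not overlap either. The share of all genes without overlap was not counted. Against control, Shmt1 and Vldlr were called with X-1 only, Slc7a5 with X-3 only, and Pycr1, Mthfd1l and Slc7a3 with both by unequal amounts. Under spike-in scaling Shmt1 (−0.70, adjusted p = 0.0337) and Vldlr (−0.77, adjusted p = 0.0195) were called lower with X-3. Slc7a5 was then called lower with X-1 (−0.99, adjusted p = 0.00195), whereas Vldlr with X-1 and Mthfd1l with either compound were not called.

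These calls depended on the setting. All 6 were lost under median scaling, where Shmt1 had an adjusted p of 0.0585, and under spike-in scaling those of the 4 lower genes were lost. Among all genes tested, 1204 were called higher and 612 lower with X-3. Median scaling gave 340 and 153, and spike-in scaling 1589 and 269. With the replicate block Pycr1 (adjusted p = 0.0589) and Slc7a5 (adjusted p = 0.0524) were not called. Shmt1 kept its call with any 1 array left out. Slc7a3 lost it when either X-1 replicate 2 or X-3 replicate 3 was left out (−0.63 to −0.59, adjusted p = 0.0585 to 0.0594). Vldlr (−0.66 to −0.61, adjusted p = 0.0585 to 0.0722) and Mthfd1l (−0.65 to −0.56, adjusted p = 0.0779 to 0.0936) lost it without replicate 2 or 3 of either compound. Pycr1 did so in the same 4 cases and without control replicate 2 or 3 (0.53 to 0.71, adjusted p = 0.0619 to 0.132), and Slc7a5 in those 6 cases and without X-1 replicate 1 (−0.64 to −0.50, adjusted p = 0.0618 to 0.147). Slc6a9 (−0.58, adjusted p = 0.0669) was called without X-1 replicate 1 (−0.76, adjusted p = 0.0242), and Aldh18a1 (0.44, adjusted p = 0.0567) without X-3 replicate 1 (0.52, adjusted p = 0.0183).

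For 29 members (82.9%, beside 89.1% of all genes) no difference between X-1 and X-3 was called, with estimates from −0.58 to 0.45. Of these, 27 had 95% confidence intervals that stayed within 2-fold in both directions. Atf4 had the narrowest bound, with a difference of at most 0.28 on the log2 scale in either direction, and Ddit4 the widest, at 1.14. The 8 members called lower with X-3 and not called with X-1 were Asns, Cth, Eif2ak3, Fgf21, Mthfd2, Psat1, Slc38a2 and Slc7a5, and 3.85% of all genes had that pair of calls. Only Slc7a5 among them was called between the compounds, so that for the other 7 a difference between X-1 and X-3 was not shown. Under spike-in scaling all 8 were called lower with X-1 too, from −1.22 for Eif2ak3 to −0.78 for Asns.

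**Figure D3:**
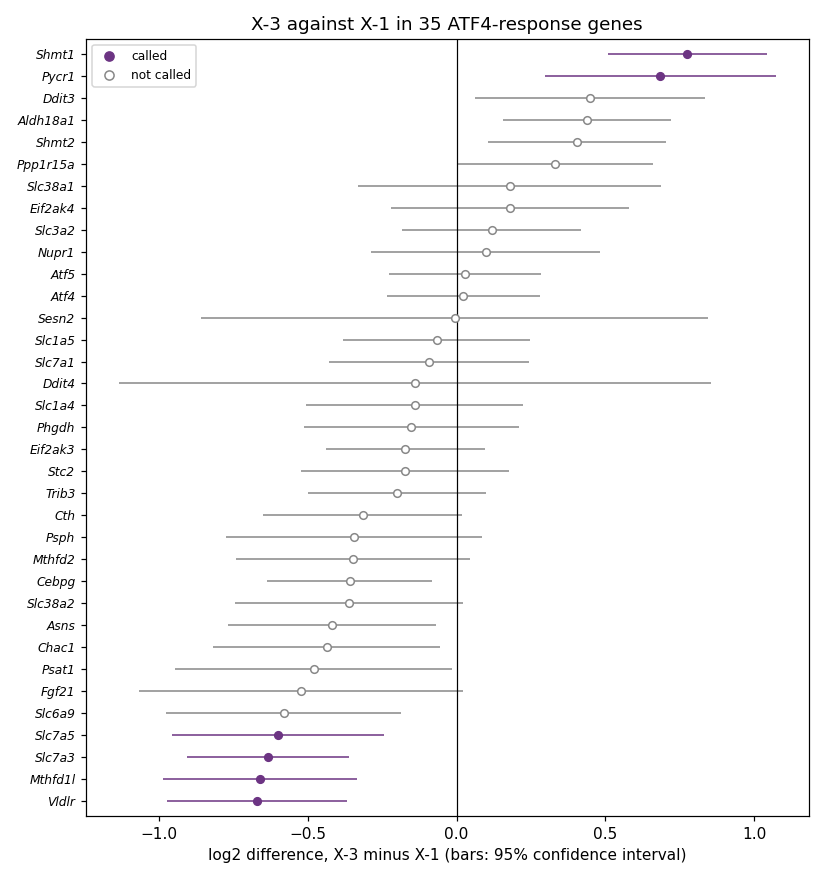
Log2 difference of X-3 minus X-1 for the 35 genes tested, ordered by size, with 95% confidence intervals from limma over 3 arrays per group; filled symbols are called. Shmt1 (0.78) and Pycr1 (0.68) stand at the top and Slc7a5, Slc7a3, Mthfd1l and Vldlr (−0.60 to −0.67) at the bottom.

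Several probes were kept for 15 members, and they did not always give one answer. Phgdh, Psph and Slc3a2 had like differences at every probe. The second probe of Slc3a2 was not called in a limma fit over all kept probes (0.66, adjusted p = 0.152, and 0.84, adjusted p = 0.079). In Slc38a1 the probe used gave the smallest differences of its 4 kept probes, which reached −2.51 with X-1 and −2.22 with X-3 at the probe on chromosome 15, 96402675 to 96402734 (mm9). That probe was not well above background on any treated array, so only a bound holds there, set by the dimmest signal well above background on each array: at least 1.73-fold lower with X-1 and at least 2.16-fold lower with X-3. The probe was kept through the control arrays alone, so no p-value is given for it. In Slc38a2 the probe used gave −0.21 and −0.57, while the probe at 96527422 to 96527481 on chromosome 15 gave 0.68 and 0.15, the first called higher (adjusted p = 0.00303 in a limma fit adjusted over all 25285 kept probes). Slc1a4 had a second probe, on chromosome 11, 20203448 to 20203507, at which it was called higher with both compounds (1.12, adjusted p = 0.000202, and 0.64, adjusted p = 0.00504), as it was with the mean of its probes (0.76, adjusted p = 0.000616, and 0.45, adjusted p = 0.0111). Of the 3 kept probes of Cebpg, 1 was not called with either compound (0.62, adjusted p = 0.164, and 0.42, adjusted p = 0.342). The second probe of Shmt1, at 60612096 to 60612155 on chromosome 11, gave −0.07 with X-1 where the probe used gave −0.76, and that of Vldlr, at 27328369 to 27328428 on chromosome 19, gave −0.12 where the probe used gave 0.67, and was called lower with X-3 (−0.36, adjusted p = 0.0243). Between the compounds, the second probes gave 0.49 for Shmt1 (adjusted p = 0.116) and −0.24 for Vldlr (adjusted p = 0.212), with the sign of the probes used but not called. With the mean of the probes the X-1 call of Vldlr was lost (0.28, adjusted p = 0.0653). Whether these probes lie in exons or untranslated regions was not examined here.

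**Figure D4:**
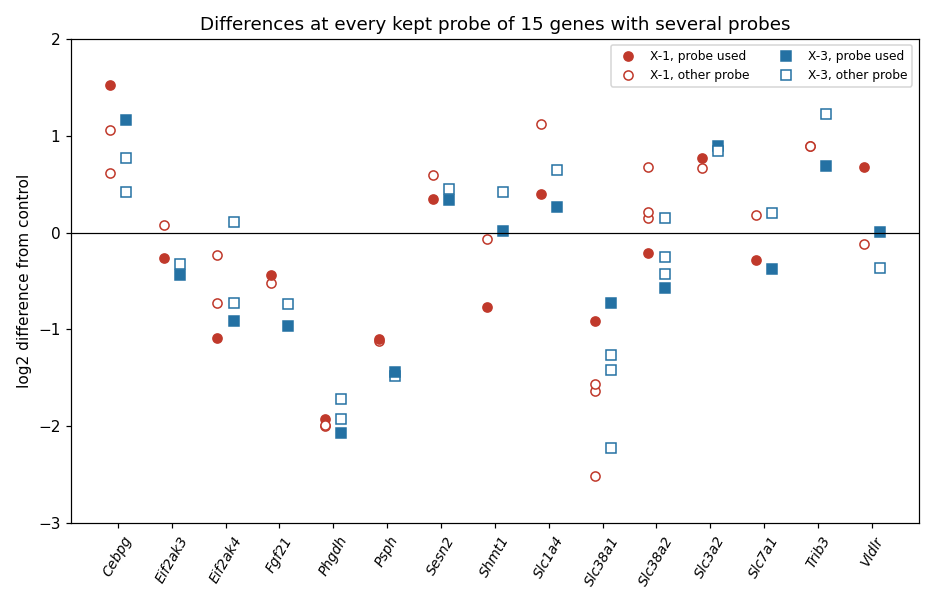
Log2 difference from control at every kept probe of the 15 members with more than 1, for X-1 (red circles) and X-3 (blue squares); filled symbols are the brightest probe, which was used for the gene. Probes of Phgdh and Psph lie close together, whereas those of Slc38a2, Slc7a1, Eif2ak3 and Vldlr lie on both sides of 0 for X-1.

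Related genes outside the list were counted in the same way, beside 28.2% of all genes called higher and 28.3% lower with X-1 and 29.3% and 26.4% with X-3. These shares of all genes hold for the counts here and in the next paragraph, except those under spike-in scaling. In both paragraphs each pair of values is the log2 difference with X-1 and then with X-3. Of 25 other reported Atf4 targets tested, 7 were called higher and 7 lower with X-1, and 7 higher and 10 lower with X-3. Atf3, a stress-induced factor, rose by 5.06 and 4.58, and Vegfa, an angiogenic growth factor, by 2.64 and 2.33. Pck2, the mitochondrial enzyme that makes phosphoenolpyruvate (−2.00 and −1.63), and Jdp2, a bZIP repressor (−1.82 and −0.96), fell. Among 13 genes of eIF2 signalling and eIF2B, 5 were higher and 3 lower with X-1, and 7 higher and 2 lower with X-3. Eif2ak2, the kinase activated by double-stranded RNA, rose by 1.52 and 1.41, and Ppp1r15b, the constitutive partner of Ppp1r15a, by 1.30 and 1.08, while Eif2b4, a subunit of eIF2B, showed differences of −1.03 and −0.62 and Impact, an inhibitor of Eif2ak4, of −0.73 and −0.85, all called lower. Of 22 genes of amino acid sensing upstream of mTORC1, 4 were higher and 8 lower with X-1, and 4 higher and 7 lower with X-3. Wdr59 and Mios, of the complex that relieves inhibition of mTORC1, rose by 1.61 and 1.09 with X-1 and by 1.37 and 1.20 with X-3, and Tsc2, a brake on mTORC1 (−1.41 and −1.06), and Sesn3, a relative of Sesn2 (−1.37 and −1.07), fell.

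Other transporters and enzymes next to the members were also counted. Of 19 other transporters of the same families, 7 were called higher and 7 lower with X-1, and 7 higher and 5 lower with X-3. Slc43a2, a carrier of large neutral amino acids, rose by 3.12 and 3.34, and Slc7a7, a light chain that pairs with Slc3a2, by 2.48 and 3.18. Slc1a3, a glutamate transporter (−2.41 and −2.89), fell. Slc7a8, another light chain that pairs with Slc3a2, was well above background on all 3 control arrays and on 0 treated arrays, so only a bound holds: at least 1.69-fold lower with X-1 and at least 2.11-fold lower with X-3. Slc7a8 passed the filter through the control arrays alone, and its limma calls were not a test of these bounds, so no p-value is given. Of 16 other enzymes of serine, glycine and folate metabolism, 3 were higher and 9 lower with X-1, and 3 higher and 6 lower with X-3. Mtr, the methionine synthase, rose by 1.32 and 1.77, as did Gldc of the glycine cleavage system (1.13 and 1.46), while its partner Gcsh (−1.09 and −1.36) and Fpgs, which retains folate in cells (−2.50 and −2.57), fell. Of 19 enzymes of proline, glutamate, aspartate and sulfur amino acids, 4 were higher and 12 lower with X-1, and 3 higher and 11 lower with X-3. Gclc, which limits glutathione synthesis, rose by 2.95 and 1.89, and Glul, the glutamine synthetase, by 2.49 and 2.49, whereas Asrgl1, an asparaginase (−2.23 and −1.64), and Cdo1, which oxidizes cysteine (−1.83 and −2.20), fell. All genes named here from these 6 lists were called with both compounds and kept their sign under quantile, median and spike-in scaling, although under spike-in scaling Ppp1r15b, Eif2ak2 and Mios were not called with either compound, Gldc and Mtr not with X-1 and Wdr59 not with X-3. The counts of higher and lower genes then became 5 and 17 with X-1 and 4 and 15 with X-3 for the Atf4 targets, and 0 and 8, and 0 and 5, for eIF2 signalling. They became 1 and 17, and 0 and 17, for amino acid sensing, 3 and 9 with either compound for the transporters, 0 and 13, and 2 and 12, for the folate list, and 3 and 15, and 2 and 15, for the last list. Of all 16733 genes tested, 1542 were then called higher and 9938 lower with X-1, and 1845 higher and 8379 lower with X-3.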

How the data were processed

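Messenger RNA of 3T3-L1 cells was read on 9 arrays. The authors deposited scanner files of spot intensity and, per the file headers, Agilent Feature Extraction 10.5.1.1 (replicate 1) or 10.7.3.1 (replicates 2 and 3) subtracted background, with no scaling between arrays; the submitters' processing notes name 9.1. The authors' deposited series table holds a score per probe and array, used only as an alternative. Spots of a probe were averaged, and log2 intensity was reduced by the array's 75th percentile. Probes had to be well above background on all 3 arrays of a group (25285 kept), and a gene was its brightest kept probe. Limma 3.58.1 in R 4.3.3 was fitted once to the 9 arrays with no term but group, two-sided, with Benjamini-Hochberg adjustment over 16733 genes. On simulated data this recovered 53% of changes of 1 log2 unit and 91% of changes of 2. P-values measure the spread between these arrays, whose small number limits precision. Same-numbered arrays shared a slide, and across genes their deviations correlated at 0.517, 0.318 and 0.271 (X-1 and control), 0.238, 0.112 and 0.230 (X-3 and control) and −0.041, −0.182 and 0.156 (X-3 and X-1). Slide 1 was scanned on another day. Every member is named, and from each of 6 further lists the 2 genes with the largest rise and the 2 with the largest fall. Members, lists and rules were chosen with earlier results of these data known. Probe positions are mm9 and promoters GRCm38.p6.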

Additional observations from a re-analysis of the deposited data

How the results depend on the processing

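Under spike-in scaling, with 2 arrays per group and 3 residual degrees of freedom, the X-1 differences of Atf5 (−0.72), Aldh18a1 (−0.80), Slc3a2 (−0.090), Nupr1 (−0.71) and Vldlr (−0.10) and the X-3 differences of Trib3 (−0.11), Shmt1 (−0.70), Mthfd1l (−0.075), Aldh18a1 (−0.061) and Vldlr (−0.77) changed sign. Limma there fitted 1 common variance for all genes, so its calls do not use each gene's own spread. The members' median became −1.06 (X-1) and −1.23 (X-3), with 3 members called higher for each and 24 lower for X-1. Median scaling gave an X-1 median of −0.43 and 5 members higher with X-3, and the mean of kept probes gave an X-1 median of −0.076. In X-3 against X-1, counts of members higher and lower were 0 and 0 with median scaling, 1 and 2 with normexp on the median signal (added after the data were seen, as not all files hold the planned mean signal), 1 and 0 without the filter on dim probes (36 members, 27617 genes), and 1 and 1 with the 2 compounds' arrays alone; spike-in scaling gave 0 lower. At an unadjusted limma p under 0.05 the counts were 4 and 5 with median scaling, 5 and 8 without the filter and 5 and 3 with spike-in scaling, beside 6 and 9 in the main setting. Among all genes tested, calls by adjusted p were 1204 higher and 612 lower in the main setting. They were 340 and 153 with median scaling, 652 and 398 with normexp, and 422 and 155 without the filter. The 2 compounds' arrays alone gave 547 and 211, and spike-in scaling 1589 and 269. With the replicate block, 1 member was higher in X-3 against X-1, and beside the calls given above the block changed no other. Leaving out 1 array gave 8 to 9 higher and 11 to 12 lower members with X-1, 8 and 13 to 18 with X-3, and 1 to 3 and 0 to 4 between the compounds, with medians of −0.25 to −0.16, −0.49 to −0.34 and −0.27 to −0.04. Of the X-1 calls 10 of 11 lower ones, and of the X-3 calls 9 of 18, held in every setting. A sign change in a gene called in neither setting was not counted. Signal over background limits Stc2 and Cbs.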
